A study of Mus musculus with 2 samples.

Results

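The genes described here are the stefin and cystatin-like genes that lie together on mouse chromosome 16. They were taken by symbol from the gene lists of both deposited libraries. Of 9 symbols looked for, 7 had a row of their own among 32285 genes: Stfa1, Stfa2, Stfa2l1, Stfa3, Cstdc4, Cstdc5 and Cstdc6. The other two symbols, Gm5483 and BC100530, are older names of Cstdc4 and Cstdc5, so no listed gene was lost.

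Stefins are small cystatins that stay in the cytosol, where they bind and block cysteine proteases of the papain type such as cathepsins B, H, L and S. Mice carry a cluster of closely related copies of stefin A, a gene that humans have as CSTA. Their transcripts are known from neutrophils, cells that mature in the bone marrow from dividing progenitors (ProNeu and PreNeu) through immature neutrophils (imNeu) to mature neutrophils (mNeu).

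Bone marrow from mice aged 13 to 14 weeks on a C57BL/6 background was profiled by 3′ single-cell RNA-seq, in 1 library from control mice (Ctrl) and 1 from Map4k4-cKO mice (cKO). The cKO mice were Mx1-Cre Map4k4 f/f animals given poly I:C, which switches on the interferon-inducible Mx1 promoter and thereby Cre. The methods print the Ctrl littermates as Mx1-Cre Map4k4 -/-, and they state the poly I:C injections for the cKO mice. Both libraries combined 2 parts of cells enriched on beads for c-Kit, a receptor of stem and progenitor cells, with 3 parts of marrow freed of red cells. How many animals each library holds is not given in the labels. With 1 library per genotype, no difference below has a replicate check or a p-value, and each 95% interval covers counting error only.

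The Ctrl library held 71527701 unique molecular identifiers (UMIs, each a tag of 1 captured RNA molecule) in 10220 barcodes, and the cKO library held 64393950 UMIs in 6872 barcodes. Cells kept for analysis numbered 9965 and 6718, with median depths of 4111 and 6243.5 UMIs. The 2 libraries shared 2949 barcodes, which is 29.6% of the cells used from Ctrl and 43.9% of those from cKO. Of these, 15.0% fell in the same cell class in both libraries, against 13.9% from the class sizes alone. The targeted gene Map4k4 had 72.6 CPM (counts per 1e6 UMIs) in the kept cells of the library labelled Ctrl and 64.3 CPM in the library labelled cKO. That log2 ratio of cKO over Ctrl was -0.17 (95% interval -0.23 to -0.12), and it turned to 0.30 under median-of-ratios scaling. In the cells classed below as mature neutrophils, Map4k4 had 175 CPM in Ctrl and 130 CPM in cKO. The log2 ratio there was -0.43 (-0.55 to -0.31), and -0.02 under that scaling. Ctrl and cKO therefore stand for the libraries as labelled throughout. By RT-PCR, the study reported loss of the Map4k4 transcript in stem and progenitor cells after poly I:C.

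In the GENCODE annotation of GRCm38 the 7 genes span 298582 bases of chromosome 16, from 36156811 to 36455392. All are annotated as protein-coding. Stfa2l1, Cstdc4 and Stfa1 lie on the plus strand in that order, followed by Cstdc6, Cstdc5, Stfa2 and Stfa3 on the minus strand. The 3 related genes complete the region: Csta1 lies just before Stfa2l1, and Csta3 and Csta2 lie between Cstdc4 and Stfa1.

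Because the copies are so alike, the sequences directly upstream of 6 of them are shown, each 120 bases that end just before the start of transcription in the RefSeq annotation of GRCm38.p6. RefSeq held no such window for Cstdc6 in the table used. Capitals mark a stretch of 13 bases that all 6 windows share. In Cstdc5 the annotated start falls inside the stretch, so its first 12 bases are seen here.
Stfa2l1: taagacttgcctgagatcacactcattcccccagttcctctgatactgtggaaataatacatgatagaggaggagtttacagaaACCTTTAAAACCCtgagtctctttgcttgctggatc
Cstdc4: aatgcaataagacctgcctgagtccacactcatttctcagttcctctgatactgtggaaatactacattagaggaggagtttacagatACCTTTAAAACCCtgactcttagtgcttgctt
Stfa1: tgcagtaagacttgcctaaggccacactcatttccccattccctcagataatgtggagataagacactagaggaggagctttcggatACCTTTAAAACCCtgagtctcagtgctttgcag
Cstdc5: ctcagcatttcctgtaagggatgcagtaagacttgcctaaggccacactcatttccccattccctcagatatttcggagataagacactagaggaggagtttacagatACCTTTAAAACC
Stfa2: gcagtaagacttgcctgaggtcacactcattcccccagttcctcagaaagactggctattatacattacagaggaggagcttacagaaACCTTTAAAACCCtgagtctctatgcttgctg
Stfa3: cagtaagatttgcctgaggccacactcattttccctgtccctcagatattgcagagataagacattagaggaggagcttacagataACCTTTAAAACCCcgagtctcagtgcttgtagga

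The windows lie at chr16:36156691-36156810 for Stfa2l1, chr16:36184092-36184211 for Cstdc4 and chr16:36277028-36277147 for Stfa1, all on the plus strand. Those on the minus strand lie at chr16:36367571-36367690 for Cstdc5, chr16:36408364-36408483 for Stfa2 and chr16:36455393-36455512 for Stfa3. GENCODE places the starts of Stfa1, Cstdc5 and Stfa2 further upstream, at 36276951, 36367748 and 36408457. The windows of Stfa1 and Cstdc5 therefore lie inside those gene models, and that of Stfa2 overlaps its gene model. Starts named below are those of RefSeq. The shared stretch ACCTTTAAAACCC begins 32 to 36 bases before the annotated start in 5 genes and 12 bases before it in Cstdc5. Searched on both strands, it was found in 9 of 32851 RefSeq windows of 300 bases around gene starts (0.0274%), 6 of which belong to these genes. It was picked as the longest stretch common to the windows of these genes, so those 6 matches were fixed in advance. Its inner letters TTTAAAA alone were in 8.74% of all windows. A second run of letters, GAGGAGGAG, was in all 6 windows here and in 3.37% of all windows. That run was chosen by hand, and the 6 windows are alike in sequence, so its matches are not separate counts. All of these matches describe the letters only and show no bound factor. Between pairs of the 6 genes, the upstream sequence in the RefSeq windows was 72.8% to 96.1% identical.

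The longest GENCODE transcripts of the 7 genes fall into near-identical sets, which matters for how reads could be assigned. Stfa1 and Cstdc5 were 97.1% identical over 617 aligned bases, and Cstdc6 was 94.1% identical to Stfa1 and 95.3% to Cstdc5. Stfa2 and Stfa2l1 were 95.7% identical over 373 bases, whereas Stfa3 was 80.6% to 82.2% identical to the members other than Cstdc4, and Cstdc4 was 66.4% to 74.5% identical to any other. In the last 300 bases, where 3′ reads fall, 41.7% of windows of 90 bases of Cstdc5 occurred in another gene, as did 23.2% in Cstdc6 and 18.5% in Stfa1. The shares were 3.79% in Stfa2, 3.32% in Stfa2l1 and 0% in Cstdc4 and Stfa3. Counts of Stfa1, Cstdc5 and Cstdc6 are thus uncertain among themselves, and the read length and the treatment of ambiguous reads are not given in the sources used here. Values below are not divided by transcript length (387 to 1859 bases), because 3′ counting tags 1 end of each molecule.

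Mature neutrophils held most of the stefin RNA in both libraries. Cells were assigned to classes by their UMIs of marker genes that include none of the 7, and the mature class was marked by genes such as Retnlg and Mmp8. This mNeu-like class had 2153 Ctrl cells and 1962 cKO cells, 21.6% and 29.2% of the kept cells, and gave 83.5% and 83.3% of all UMIs of the 7 genes. Its summed level was 2302 CPM in Ctrl (95% interval 2263 to 2342) and 3773 CPM in cKO (3736 to 3810).

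Before maturity the sum was far lower, and in the cKO library it was higher at each later stage. It was 26.6 CPM in HSC/MPP-like cells of Ctrl and 28.9 CPM in those of cKO, a class of stem cells and multipotent progenitors. In ProNeu-like cells the 2 libraries had 11.9 and 43.1 CPM, in PreNeu-like cells 54.8 and 176 CPM, and in imNeu-like cells 78.1 and 275 CPM. Outside the lineage the sum was 24.1 and 30.8 CPM in monocyte progenitors (ProMon-like) and 21.4 and 29.8 CPM in erythroid progenitors. Stfa1 and Cstdc5 were higher in cKO outside the neutrophil classes too. Log2 ratios of Stfa1 and Cstdc5 were 1.61 and 1.67 in ProMon-like, 1.03 and 1.47 in erythroid and 1.63 and 2.73 in HSC/MPP-like cells. Their intervals excluded equal levels, on 8 to 33 UMIs per gene and library. Stfa2l1 was lower in cKO in ProMon-like and HSC/MPP-like cells, at -1.11 and -1.67. Lymphoid and plasmacytoid dendritic cells were pooled because the cKO library had only 53 of them against 956 in Ctrl. They gave 59.6 CPM (52.2 to 67.8) in Ctrl and 40.9 CPM (22.3 to 68.6) in cKO. These lymphoid cells should lack stefin A, so their level is read here as background, which in cKO rests on 53 cells. Cells given no class were higher, with 94.8 CPM in 849 Ctrl cells and 386 CPM in 1096 cKO cells. Those sums were above the imNeu-like ones in both libraries, at median depths of 840 and 780 UMIs. The source of these UMIs was not tested. The Ctrl background rested on few cells, since 4 of the 956 held 48.5% of its member UMIs. Without the top cell it was 41.9 CPM, and PreNeu-like cells of Ctrl were at 42.7 CPM without theirs. In CPM, the Ctrl sums of HSC/MPP-like and ProNeu-like cells were below both values of the background. Depth was not matched there, with Ctrl medians of 9434.5 and 16731 UMIs against 2295 in B cells, the largest pooled class. With Ctrl cells reduced to 1000 UMIs, a member was in 3.44% of HSC/MPP-like (2.08% to 5.32%) and 1.17% of ProNeu-like (0.58% to 2.08%). Lymphoid cells of Ctrl were then at 3.46% (2.36% to 4.88%). In cKO, the ProNeu-like sum of 43.1 CPM lay inside the background interval. At 1000 UMIs per cell, 10.3% (8.34% to 12.4%) of these cells had a member, against 5.77% (1.21% to 15.9%) of cKO lymphoid cells. With each cell reduced to 1000 UMIs, the mature marker Retnlg was found in 13.8% of Ctrl and 36.9% of cKO ProNeu-like cells. Whether this goes with the higher stefin sum was not tested.

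**Figure D1:**
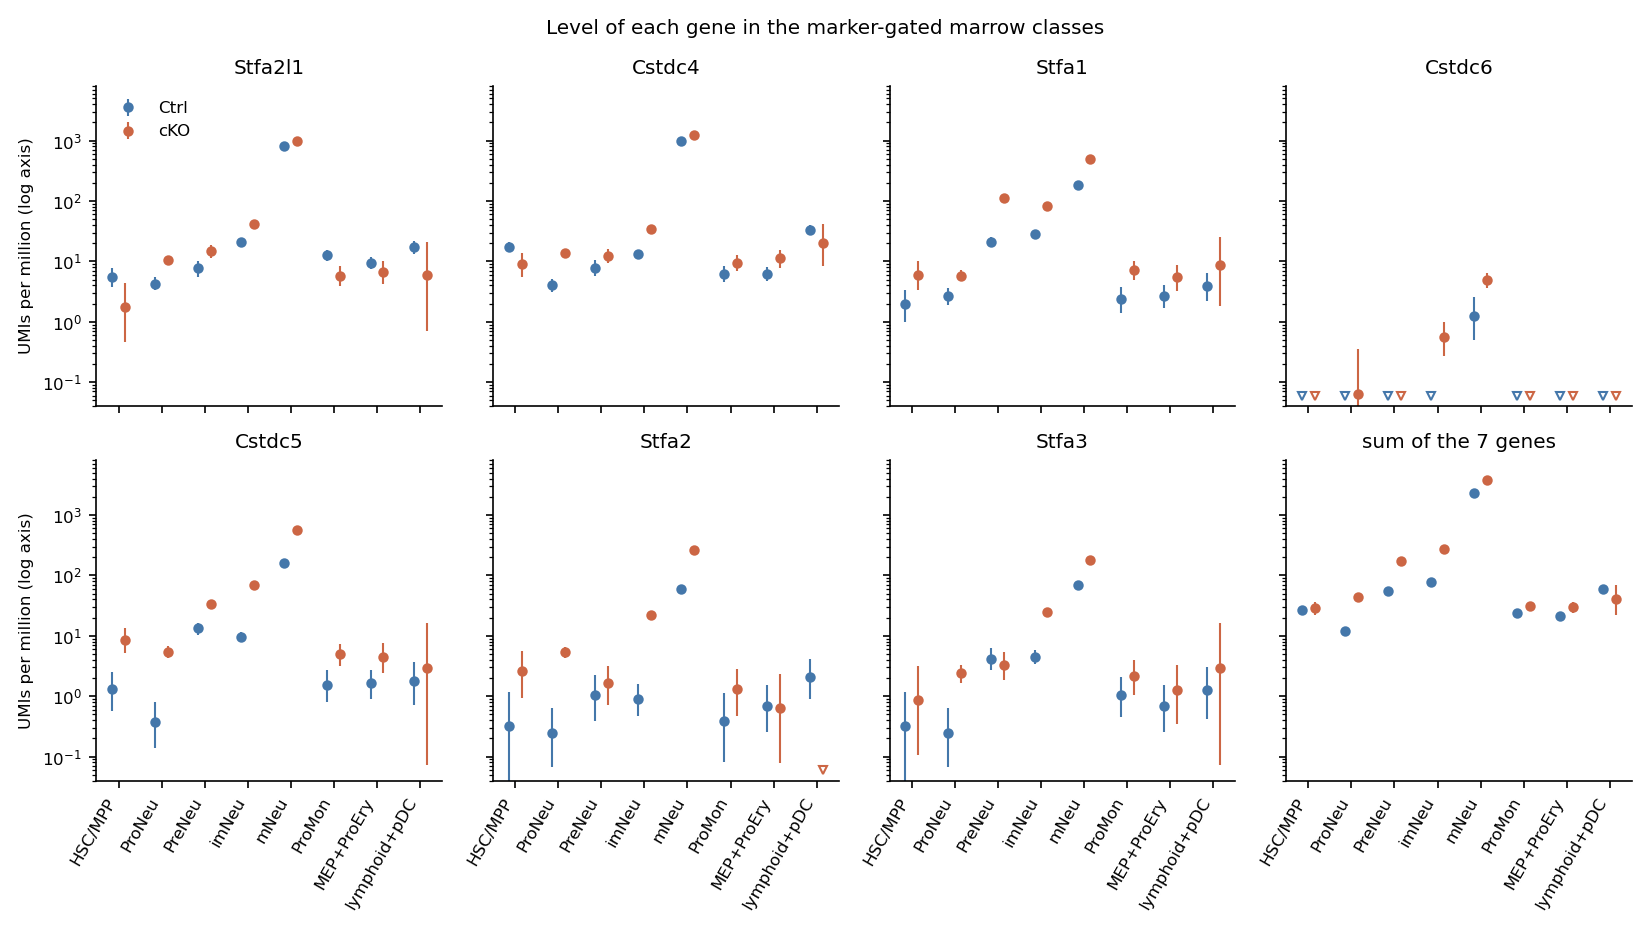
Level of each of the 7 genes and of their sum, in CPM on a log axis, in 8 marker-gated classes of the Ctrl library (blue) and the cKO library (orange); bars are 95% counting intervals and open triangles mark classes with no UMI. The sum reaches 2302 CPM in Ctrl and 3773 CPM in cKO in mNeu, against 78.1 and 275 CPM in imNeu.

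In mNeu-like cells, Cstdc4 and Stfa2l1 were the most abundant members and differed least between the libraries. Cstdc4 had 1001 CPM in Ctrl (95% interval 975 to 1028) and 1244 CPM in cKO (1222 to 1265), a log2 ratio of 0.31. Stfa2l1 had 822 CPM in Ctrl (798 to 846) and 1001 CPM in cKO (982 to 1020), a log2 ratio of 0.28. Retnlg, a secreted protein gene typical of mature neutrophils, had a log2 ratio of 0.23, close to both. Per 1000 Retnlg UMIs, Cstdc4 was at 33.7 UMIs in Ctrl against 35.6 in cKO, and Stfa2l1 at 27.7 against 28.7.

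The other 5 members were at least 2-fold higher in the cKO library. Stfa1 had 186 CPM in Ctrl (175 to 198) and 504 CPM in cKO (490 to 518), a log2 ratio of 1.44. Cstdc5 had 163 CPM (152 to 174) and 572 CPM (557 to 586), a log2 ratio of 1.81. These are the pair with near-identical transcripts, and both were higher in cKO. Stfa2 had 59.9 CPM (53.7 to 66.7) and 266 CPM (256 to 276), the highest log2 ratio of the 7 at 2.15. Stfa3 had 69.4 CPM (62.7 to 76.6) and 182 CPM (174 to 190), a log2 ratio of 1.39. Cstdc6 was close to the limit of detection, with 7 UMIs in Ctrl and 51 in cKO, and its log2 ratio of 1.96 had a wide interval of 0.81 to 3.34.

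Few genes in these cells were as much higher in cKO. Of 10905 genes with at least 10 UMIs in mNeu-like cells, 1.61% were at least 2-fold higher in cKO, and 5 of the 7 members were. At 1.5-fold the share was 3.45% of genes and again 5 of the 7. The members were chosen with earlier results of these data known. Stfa1, Cstdc5 and Cstdc6 also share transcript sequence, so the 5 are not separate calls. Both limits hold for the counts in other classes below. The median log2 ratio was 1.44 over the members and -0.48 over all genes tested. Relative to that shift, Cstdc4 and Stfa2l1 stood at 0.80 and 0.77, and the other members between 1.87 and 2.63. The shift of all genes was -0.42 in imNeu-like and -0.29 in PreNeu-like cells.

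Counted over all mNeu-like cells, RNA from other cells was lower in the cKO library, which moved with the comparison. These cells had median depths of 2247 UMIs in Ctrl and 4793.5 in cKO. Of 6 genes of plasma cells, B cells and red cells counted in mNeu-like cells, 5 were at least 2-fold lower in cKO, with a median log2 ratio of -2.53. The share of all genes that were as much lower was not computed. Igkc, an antibody light chain of plasma cells, had 808 CPM in Ctrl and 204 CPM in cKO. Its gap depended on depth, with 1676 and 876 CPM in cells of 500 to 1000 UMIs and 1104 and 1041 CPM at 1000 to 2000. It had 799 and 815 CPM at 2000 to 4000 UMIs, and 584 and 126 CPM at 4000 to 8000. Hbb-bs, a beta-globin gene of red cells, had 170 and 19.3 CPM. Their part in the member ratios was not tested.

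**Figure D2:**
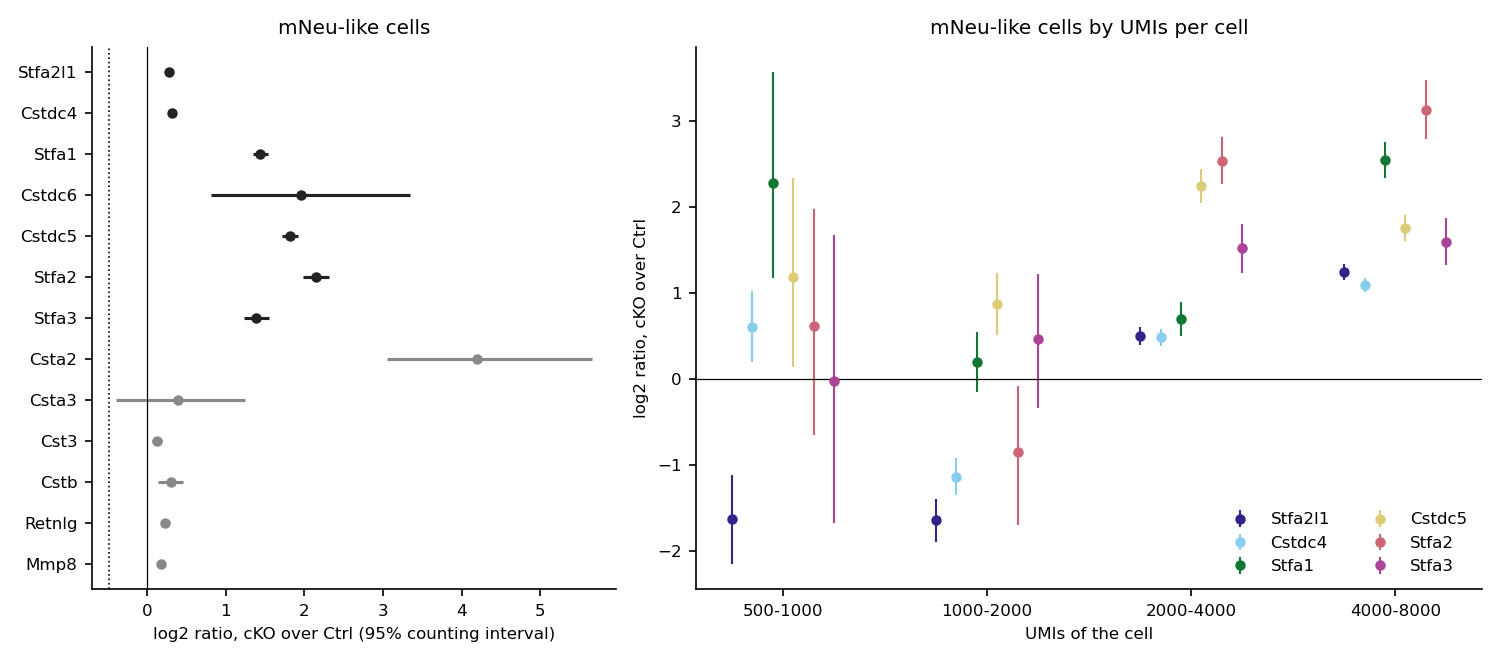
Log2 ratio of cKO over Ctrl in mNeu-like cells with 95% counting intervals, on the left for the 7 genes (black) and 6 other genes (grey), with the median of all genes at -0.48 as a dotted line, and on the right for 6 of the genes in 4 ranges of UMIs per cell. Stfa2l1 and Cstdc4 lie near the ratio of Retnlg over all cells, and both are below 0 in cells with 1000 to 2000 UMIs and above 0 from 2000 UMIs on.

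The difference depended on how many UMIs a cell had. Among mNeu-like cells with 4000 to 8000 UMIs (339 Ctrl, 658 cKO), all 7 members were higher in cKO, and the sum was 1942 CPM in Ctrl and 5358 CPM in cKO. There Stfa2l1 had 616 and 1460 CPM, and Cstdc4 had 868 and 1853 CPM. With 2000 to 4000 UMIs (890 Ctrl, 267 cKO), the sum was 2525 and 4502 CPM. Above 8000 UMIs there were 12 Ctrl and 474 cKO cells, too few in Ctrl for a comparison. The cKO cells there had 2720 CPM and gave 14019 of the 39665 member UMIs of cKO mNeu-like cells.

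In CPM, the order of the libraries turned in cells with 1000 to 2000 UMIs (691 Ctrl, 296 cKO). The share of cells with any member did not turn there, at 50.8% (47.0% to 54.6%) in Ctrl and 68.6% (63.0% to 73.8%) in cKO. By single member, Stfa1 was found in 7.24% and 26.0% and Cstdc4 in 23.4% and 31.1%, but Stfa2l1 in 35.7% and 28.0%. The sum in these cells was 2771 CPM in Ctrl and 1508 CPM in cKO, a log2 ratio of -0.88 (-1.01 to -0.75). Stfa2l1 had 1158 and 371 CPM there, Cstdc4 had 1131 and 516 CPM, and Stfa2 had 75.1 and 41.8 CPM. Cstdc5 had 147 and 270 CPM, and for Stfa1 the interval of the log2 ratio, -0.15 to 0.55, held 0. Between 500 and 1000 UMIs (221 Ctrl, 267 cKO), the sums were 1350 and 1429 CPM, a log2 ratio of 0.08 whose interval, -0.17 to 0.34, held 0. Stfa1 had 46.6 and 226 CPM there (log2 ratio 2.28, interval 1.18 to 3.58), and Cstdc4 and Cstdc5 were also higher in cKO, at 0.61 and 1.19 with intervals above 0. Stfa2l1 was lower, with 681 and 221 CPM.

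Those shallow cKO cells differed from deeper ones in other genes as well. Camp, a secondary granule gene of immature neutrophils, had 5131 CPM in Ctrl and 15436 CPM in cKO at 1000 to 2000 UMIs. Elane, the elastase gene of early neutrophil progenitors, had 537 and 2240 CPM, and Retnlg had 22235 and 12486 CPM. At 2000 to 4000 UMIs these genes had 6640 and 3583 CPM for Camp, 337 and 394 CPM for Elane, and 30686 and 33669 CPM for Retnlg. In shallow cKO cells with any UMI of the 7 genes, the mean was 3.02 such UMIs per cell, against 8.30 in Ctrl. Whether the mixed content of these cells accounts for the lower stefin levels was not tested. With cells under 2000 UMIs left out, 1241 Ctrl and 1399 cKO cells remained, the log2 ratio of the sum was 0.81 and 5 of the 7 members were at least 2-fold higher.

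Leaving out the shared barcodes lowered the ratio but kept its direction. The sum was then 2380 CPM in 1723 Ctrl cells and 3392 CPM in 1146 cKO cells, a log2 ratio of 0.51 (0.48 to 0.55). Stfa1 was at 1.11, Stfa2 at 2.02, Cstdc5 at 1.62 and Stfa3 at 1.42, while Stfa2l1 was at 0.09 and Cstdc4 at 0.15.

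Ordering the cells by maturity gave a similar picture. ImNeu-like and mNeu-like cells of both libraries were placed in 8 bins by their ratio of mature markers to secondary granule markers, a ratio that uses none of the 7 genes. The sum went from 63.3 CPM in the earliest bin to 3625 CPM in the latest in Ctrl, and from 121 to 5774 CPM in cKO. It was higher in cKO in 8 of 8 bins, with log2 ratios of 0.66 to 0.96 in the latest 3. The bins were not matched for depth. In the latest 3 the median UMIs were 2051.5, 2053.5 and 2278.5 in Ctrl, against 6388.5, 6037 and 5504.5 in cKO. In these 3 bins Stfa1 was between 0.90 and 1.90, Stfa2 between 2.08 and 2.24, Cstdc5 between 1.51 and 2.56, and Stfa3 between 0.89 and 2.10. Stfa2l1 lay between 0.00 and 0.47 and Cstdc4 between -0.11 and 0.68, and the lower bound of both was in the earliest of these bins.

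**Figure D3:**
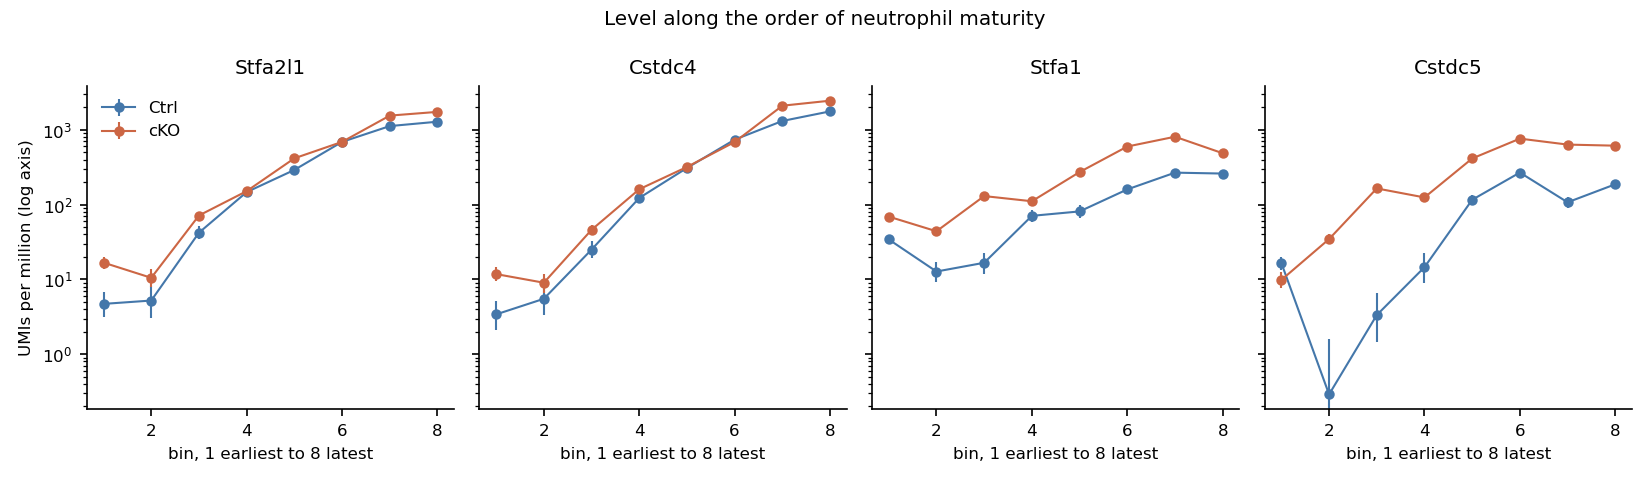
Level of 4 of the genes in CPM (log axis) in 8 bins of imNeu-like and mNeu-like cells ordered from least to most mature, for Ctrl (blue) and cKO (orange), with 95% counting intervals. Stfa2l1 and Cstdc4 reach 1287 and 1769 CPM in Ctrl and 1742 and 2458 CPM in cKO in the latest bin, while Stfa1 and Cstdc5 are higher in cKO in each of the latest 6 bins.

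Within mature neutrophils the members also differed by the kind of cell. Mmp8, a granule collagenase, was above Il1b, an inflammatory cytokine of the most mature cells, in 1678 Ctrl and 1586 cKO cells. The reverse held in 282 and 167 cells. Stfa2l1 was higher in the cells with more Il1b, at 1396 CPM in Ctrl and 2140 CPM in cKO, against 731 and 940 CPM where Mmp8 was higher. Stfa3 went the other way, with 10.5 and 87.3 CPM where Il1b was higher and 78.3 and 191 CPM where Mmp8 was higher. The 10.5 CPM in Ctrl rested on 5 UMIs in 4 cells. Stfa1 was at 242 and 643 CPM where Il1b was higher and 164 and 501 CPM where Mmp8 was higher. Cstdc4 was at 1033 and 2353 CPM in the former cells and 992 and 1194 CPM in the latter. For Cstdc5 the order differed between the libraries, with 48.5 and 685 CPM in the former and 176 and 566 CPM in the latter. Il1b-high cells were shallower, with medians of 1634 and 3655 UMIs against 2574 and 5823. In 137 Ctrl and 164 cKO cells with neither gene the order turned, and the sum was 3266 CPM in Ctrl and 1175 CPM in cKO (log2 ratio -1.48, interval -1.72 to -1.23). Stfa2l1 was at -2.25 and Cstdc4 at -1.75 in these cells, which were shallow, with median depths of 1105 UMIs in Ctrl and 863.5 in cKO. In the remaining 56 and 45 cells, with equal UMIs of both genes, the sum was 3241 and 4039 CPM.

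Which member gave the stefin RNA changed with the stage. In PreNeu-like cells Stfa1 led, with 37.9% of the members' UMIs in Ctrl and 62.8% in cKO, and in imNeu-like cells it still led with 37.0% and 29.6%. In mNeu-like cells Stfa1 gave 8.07% and 13.4%, and Cstdc4 led with 43.5% and 33.0%, followed by Stfa2l1 with 35.7% and 26.5%. Cstdc5 gave 24.2% and 19.1% in PreNeu-like, 12.4% and 25.4% in imNeu-like, and 7.07% and 15.2% in mNeu-like cells. The early shares rest on few cells. In cKO PreNeu-like cells, 1 cell held 247 of 542 Stfa1 UMIs, and without it the level was 60.4 instead of 110 CPM.

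**Figure D4:**
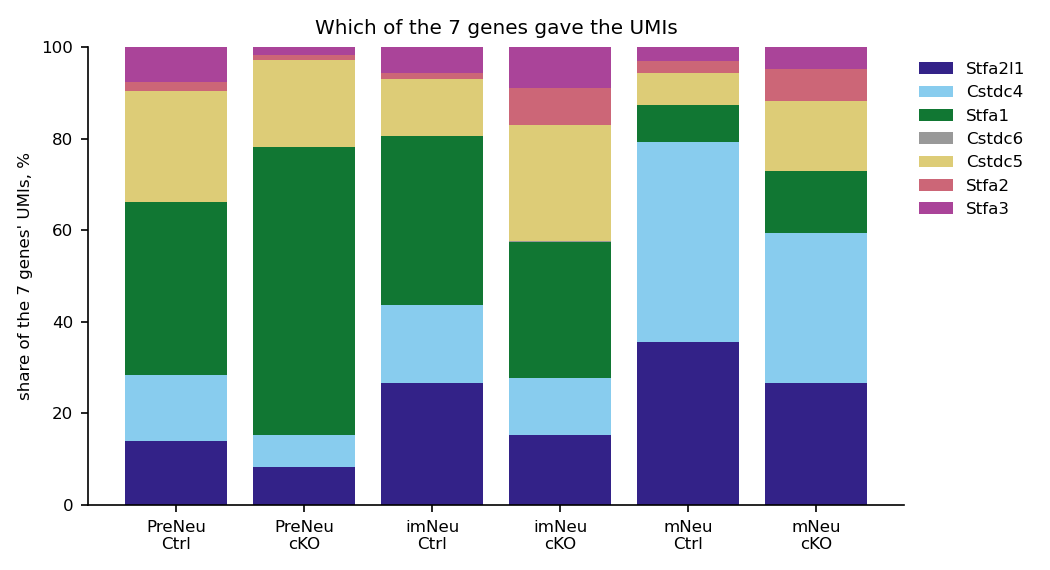
Share of the summed UMIs of the 7 genes given by each gene, in percent, in PreNeu-like, imNeu-like and mNeu-like cells of each library. Stfa1 gives 37.9% and 62.8% in PreNeu and 8.07% and 13.4% in mNeu, where Cstdc4 and Stfa2l1 take its place.

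In imNeu-like cells the 6 members with UMIs in both libraries were at least 2-fold higher in cKO, against 1.13% of 11470 genes. The mature marker Retnlg was also higher in these cKO cells. With each cell reduced to 1000 UMIs, it was found in 43.6% of Ctrl and 62.1% of cKO imNeu-like cells. Mean Retnlg UMIs per reduced cell were 1.82 and 3.22. Whether this difference in Retnlg goes with the higher stefin levels was not tested. Stfa1 had 28.9 and 81.6 CPM, Cstdc5 9.68 and 69.8 CPM, Stfa2l1 20.8 and 41.8 CPM, and Cstdc4 13.3 and 34.7 CPM. Stfa3 had 4.50 and 24.8 CPM, and Stfa2 rested on 12 UMIs in Ctrl and 439 in cKO. Cstdc6 had no UMI in Ctrl and 11 in cKO, too few to place its ratio. The Ctrl lymphoid background of Stfa2l1 was 17.3 CPM (13.4 to 21.9) and that of Cstdc4 33.3 CPM (27.8 to 39.5). By CPM, Stfa2l1 of Ctrl imNeu-like cells was within its background and Cstdc4 below, but the classes were not matched for depth. By cells with a UMI, Stfa2l1 was found in 5.58% of Ctrl imNeu-like and 4.18% of Ctrl lymphoid cells, and Cstdc4 in 3.86% and 5.02%. With cells reduced to 1000 UMIs, these shares were 1.49% and 1.45% for Stfa2l1, and 0.85% and 1.56% for Cstdc4. The imNeu-like UMIs sat in few cells: 21 of 1918 Ctrl cells and 77 of 1451 cKO cells had at least 10 UMIs of the 7 genes. They held 54.2% and 81.4% of the total. Of the 956 Ctrl lymphoid cells, 4 had as many. In each library 1 cell held many of the Cstdc5 UMIs, 296 of 1395 in cKO and 81 of 127 in Ctrl. Without the top cell of each library, Cstdc5 had 3.51 and 55.0 CPM and the summed log2 ratio was 1.81 (1.71 to 1.92).

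In PreNeu-like cells, 6 members had enough UMIs, and 2 of them, Stfa1 and Cstdc5, were at least 2-fold higher in cKO, against 1.1% of 10010 genes. Cells with at least 10 UMIs of Stfa1 numbered 5 of 536 in Ctrl and 6 of 292 in cKO. Without the top cell of each library, the log2 ratio of Stfa1 was 2.45 (2.06 to 2.87) and that of Cstdc5 was 2.5 (1.78 to 3.30), the latter up from 1.34 because 57 of its 76 Ctrl UMIs were in 1 cell. Stfa2l1 and Cstdc4 were then at 0.10 and -0.42, with intervals that held 0.

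Even over all mNeu-like cells each member was undetected in most cells and abundant in some. Detection changed with depth in cKO, where Stfa2l1 was found in 28.0% of cells with 1000 to 2000 UMIs and 53.6% with 4000 to 8000. Above 8000 UMIs it was found in 45.4% of cKO cells. In Ctrl the share did not rise from 1000 to 8000 UMIs, with 35.7%, 33.3% and 32.4% in the 3 ranges. To compare shares at equal depth, mNeu-like cells were thinned to 2000 UMIs, which kept 1241 Ctrl and 1399 cKO cells and dropped 912 and 563 shallower ones. Stfa2l1 had a UMI in 30.1% of Ctrl cells (27.6% to 32.8%) and in 42.1% of cKO cells (39.5% to 44.7%). Cstdc4 had one in 22.0% (19.7% to 24.4%) and 32.5% (30.1% to 35.0%). For Stfa1 the shares were 5.16% (3.99% to 6.54%) and 13.4% (11.7% to 15.3%), and for Cstdc5 4.11% (3.08% to 5.37%) and 15.1% (13.3% to 17.1%). Stfa2 was found in 3.55% and 12.1% of cells, Stfa3 in 3.71% and 8.86%, and Cstdc6 in 0.242% and 1.07%.

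In cells thinned to 2000 UMIs, those that had a given member carried similar amounts of it in both libraries, apart from Stfa2. Where Stfa1 was found, the mean was 7.72 UMIs in Ctrl and 8.30 in cKO. It was 8.53 and 8.57 for Cstdc5, 9.37 and 9.04 for Cstdc4, 5.37 and 5.62 for Stfa2l1, and 4.26 and 4.61 for Stfa3. Stfa2 differed more, with 3.52 and 5.69, and the sum over all members was 10.3 and 13.3 in cells with any. Without thinning, cells of 4000 to 8000 UMIs differed in amount as well. There the mean in cells with the gene was 10.6 UMIs in Ctrl and 22.2 in cKO for Stfa1, 9.82 and 16.2 for Stfa2l1, and 16.4 and 22.7 for Cstdc5. For the sum it was 20.4 and 40.4.

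**Figure D5:**
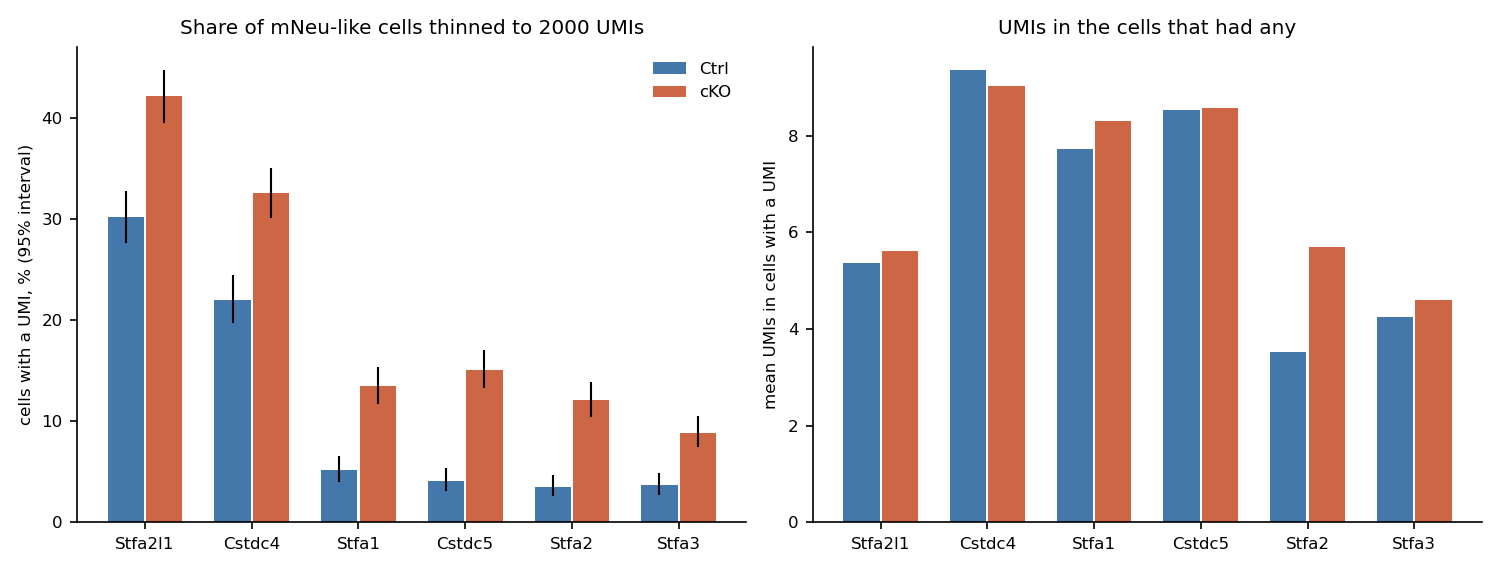
Left, share of mNeu-like cells with at least 1 UMI of each gene after thinning to 2000 UMIs, with exact 95% intervals, and right, mean UMIs in the cells that had any, for Ctrl (blue) and cKO (orange). The share of Stfa1 is 5.16% in Ctrl and 13.4% in cKO, while the mean in its thinned cells is 7.72 and 8.30.

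At 1000 UMIs per cell a UMI of any member was found in 41.7% of Ctrl mNeu-like cells (39.5% to 43.9%) and 58.1% of cKO cells (55.7% to 60.5%). The same share in lymphoid cells was 3.46% (2.36% to 4.88%) of 896 Ctrl cells and 5.77% (1.21% to 15.9%) of 52 cKO cells, and their full-depth sums are given above. In imNeu-like cells it was 4.26% (3.39% to 5.27%) and 10.1% (8.60% to 11.8%), intervals that overlapped those of the lymphoid cells of the same library. Retnlg, by comparison, was found in 98.8% and 99.9% of mNeu-like cells, and in 317 of 896 and 26 of 52 lymphoid cells.

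By the share of UMIs in the top cells, this spread was wider than for Retnlg and Mmp8 and narrower than for Il1b. In cells thinned to 2000 UMIs, the top 10% of cells held 59.9% of the members' UMIs in Ctrl and 54.4% in cKO. The top 10% held 19.98% and 18.5% for Retnlg, and 22.1% and 21.4% for Mmp8, but 86.3% and 69.7% for Il1b. For single members the shares were 68.2% and 58.0% for Stfa2l1 and 81.2% and 71.4% for Cstdc4. They were above Il1b for Stfa1 (100% and 96.9%), Stfa2 (100% and 97.0%), Cstdc5 (100% and 95.5%) and Stfa3 (100% in both). A share is fixed at 100% where fewer than 10% of cells had the gene. The variance of the members' UMIs was 19.4 times the mean in Ctrl and 30.7 times in cKO, against 2.38 and 2.14 for Mmp8, 4.13 and 4.66 for Il1b and 1.42 and 1.33 for Cst3, the gene of the secreted inhibitor cystatin C. Retnlg, with a far higher mean, was at 17.8 and 15.1. No member was found in 54.1% of Ctrl and 33.5% of cKO cells, and 3 or more were found in the same cell in 3.95% and 13.9%.

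A positive cell mostly drew on 1 member. Among cells with at least 5 member UMIs, 324 in Ctrl and 570 in cKO, the leading member gave a median of 90.7% and 78.2% of them. Cstdc4 led in 145 Ctrl cells and Stfa2l1 in 121, followed by Stfa1 in 24, Cstdc5 in 22, Stfa3 in 10 and Stfa2 in 2. In cKO, Cstdc4 led in 208 cells, Stfa2l1 in 179, Stfa1 in 79, Cstdc5 in 64, Stfa2 in 27 and Stfa3 in 13.

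Some members were found in the same cell more often than others. Cstdc4 was found in 39.6% of Ctrl cells with its neighbour Stfa2l1 (34.6% to 44.7%) and in 14.4% of cells without it (12.2% to 16.9%). In cKO the shares were 46.2% (42.1% to 50.3%) and 22.6% (19.8% to 25.6%). On the minus strand, Cstdc5 was found in 46.7% of cKO cells with Stfa2 (39.0% to 54.6%) and 10.7% of cells without it (9.06% to 12.6%). It was found in 45.2% of cKO cells with Stfa3 (36.2% to 54.3%) and 12.2% of those without. Of cKO cells with its near-identical copy Stfa1, 34.0% (27.3% to 41.3%) had Cstdc5, against 12.1% without. The first 2 of these pairs are adjacent among the members, and 1 other member lies between the genes of the last 2.

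Across the 1399 thinned cKO cells, Pearson correlations of log2(UMIs + 1) were 0.45 for Stfa2 with Cstdc5, 0.42 for Stfa3 with Cstdc5, 0.41 for Stfa2 with Stfa3 and 0.37 for Stfa2l1 with Cstdc4. They were 0.30 for Stfa1 with Cstdc5 and 0.21 for Stfa2 with its near-identical copy Stfa2l1. Over the 1241 Ctrl cells the same pairs had 0.26, 0.18, 0.15, 0.34, 0.07 and 0.18. The cells of a library share its capture and depth, and no p-value is attached to these values. In cKO the 4 highest values over all pairs of members were those among Cstdc5, Stfa2 and Stfa3 and that of Stfa2l1 with Cstdc4, and the pairs of closest sequence were lower.

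Of the other genes of the inhibitor family, few were detected in mature neutrophils. Of 17 further cystatins listed, 5 had at least 10 UMIs in mNeu-like cells, 1 was at least 2-fold higher in cKO and 0 were lower. Their median log2 ratio was 0.30, against -0.48 over all genes tested. Cst3 had 495 CPM in Ctrl and 539 CPM in cKO, a log2 ratio of 0.12 (0.06 to 0.19). Cstb, the stefin B gene found in most cell types, had 82.4 and 101 CPM, a log2 ratio of 0.30 (0.14 to 0.46). The 1 that was higher was Csta2, which lies within the span of the 7 genes and is named here after its values were seen. Its UMIs numbered 6 in Ctrl and 206 in cKO, or 1.07 and 19.6 CPM. The neighbouring Csta3 had 19 and 47, with a log2 ratio of 0.40 whose interval, -0.40 to 1.25, held 0. Csta1, just outside, had 1 and 2 UMIs.

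Cysteine cathepsins and legumain, the proteases that cystatins bind, showed no common direction in ratios not set against the shift of all genes. Of 11 listed, 8 had enough UMIs, 1 was at least 2-fold higher and 1 at least 2-fold lower in cKO. Their median log2 ratio was 0.03, against -0.48 over all genes tested. The share of all genes at least 2-fold lower was not computed. Ctsc, which activates the serine proteases of granules, had 17.5 and 36.0 CPM, a log2 ratio of 1.04 (0.72 to 1.38). Lgmn, the legumain gene, had 16 and 10 UMIs. Ctsb and Ctsl, the genes of lysosomal cathepsins B and L, were at 0.39 and 0.90. Ctss and Ctsh were at 0.02 and -0.32. Of 11 reference genes of neutrophils, 0 were at least 2-fold higher in cKO, and Mpo, a myeloperoxidase of early progenitors, was the 1 that was at least 2-fold lower, with 521 and 251 CPM. In shallow cells Mpo was higher in cKO, with 1216 and 2164 CPM at 500 to 1000 UMIs and 700 and 1447 CPM at 1000 to 2000. It was lower in deeper cells, with 513 and 318 CPM at 2000 to 4000 UMIs and 352 and 163 CPM at 4000 to 8000.

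The genes whose levels over classes were most like the members' sum were genes of mature neutrophils. Over 23 profiles of classes with at least 50 cells, and among 6677 genes, Pearson correlations of log2(CPM + 1) were highest for Cxcr2, a chemokine receptor, at 0.95 and Retnlg at 0.94. They were followed by Dhrs9 at 0.92, Asprv1, Ceacam10 and Abtb1 at 0.92, Il1f9 at 0.91, Fpr1, a receptor for formylated peptides, at 0.90, Ifit1bl2 at 0.90 and Sfxn5 at 0.89. The profiles of the 2 libraries come from the same classes, so they are not independent points, and Cxcr2, Retnlg and Asprv1 were among the markers of the mature class. In mNeu-like cells 8 of the 10 differed by less than 1.5-fold between the libraries, among them Cxcr2 with 1050 and 1136 CPM. Asprv1 had 262 and 892 CPM and Ceacam10 had 180 and 342 CPM.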

How the data were processed

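The authors deposited raw UMI counts per gene and barcode, 1 matrix per library, made with CellRanger 5.0.0 on GRCm38 and not normalized. The study also integrated the libraries, removed doublets with DoubletFinder and kept fewer cells, and none of these steps is in the deposited counts. No doublet caller was run here, and a stricter gate was an alternative. Following the study's methods, a cell needed 200 to 9000 detected genes and no more than 30% of its UMIs from mitochondrial genes.

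The gate used 17 marker lists, which hold none of the 7 genes. For each list, the marker UMIs of a cell were set against the number its depth and the mean share of these markers predict. The class with the highest Poisson log-likelihood ratio was taken, given at least 3 detected markers and 1.5 times the predicted number. Cells with secondary granule genes were called PreNeu at 1.5 times the predicted UMIs of cycling genes and imNeu below it. Between 1.2 and 1.8 times lay 496 of 2454 such Ctrl cells and 376 of 1743 in cKO. The scoring rule was set after the counts were seen. "X-like" means named by these markers.

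UMIs were summed per class and library and divided by all UMIs of the class (CPM). Levels carry exact Poisson intervals, shares exact Clopper-Pearson intervals, and log2 ratios the exact binomial interval of the 2 sums, all at 95%. Ratios were computed for genes with at least 10 UMIs over both libraries, and classes under 50 cells were not compared. Thinning kept 2000 or 1000 UMIs per cell. The calculations were also tested on simulated data, drawn as independent Poisson counts per class. Those draws lack the wide spread of the members between cells, so they do not test the intervals for it.

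The genes named are the members, other cystatins and cysteine proteases with at least 50 CPM in a class and library, reference genes, genes of other cells, and the 10 genes most like the members' sum. Lgmn, Csta1, Csta2 and Csta3 were named after their values were seen. The members and lists were chosen with earlier results of these data known. Promoter windows come from RefSeq on GRCm38.p6. Transcripts, gene spans, strands and gene types come from GENCODE on GRCm38. Sequences were compared with Biopython 1.88. Alternatives covered the filters on cells, the gate (with clusters made in scanpy 1.11.5, members left out), the denominator, the weight of cells, the scaling, the fold and the minimum UMIs. Calculations used Python 3.11.15, numpy 2.4.6, scipy 1.17.1 and pandas 2.3.3.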

Additional observations from a re-analysis of the deposited data

How the results depend on the processing

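The summed level of the 7 genes in mNeu-like cells, 2302 CPM in Ctrl and 3773 CPM in cKO with a log2 ratio of 0.71, was higher in cKO under every alternative run except the range of 1000 to 2000 UMIs per cell. The cKO level was 3817 CPM with at least 1000 UMIs per cell and 3813 CPM with at least 500 genes. With clusters in place of the gate, the levels were 2254 and 4027 CPM (ratio 0.84). They were 2364 and 3947 CPM under the stricter gate, 2418 and 3935 CPM without mitochondrial, ribosomal and haemoglobin genes in the denominator, and 2372 and 3528 CPM (0.57) as a mean over single cells. The ratio was 1.12 with median-of-ratios scaling, which moves all genes by -0.41, and 1.196 relative to the median of all genes.

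The following alternatives were chosen after seeing the data. Cells with at least 2000 UMIs gave 2227 and 3913 CPM (0.81), and the range of 2000 to 8000 UMIs gave 5206 CPM in cKO (1.19). Cells with 1000 to 2000 UMIs gave 2771 and 1508 CPM, a ratio of -0.88, with 0 members at least 2-fold higher, and there Stfa2 was at -0.85, Stfa2l1 at -1.64 and Cstdc4 at -1.13. The cause was not tested. Without the 1% of cells with the most member UMIs, the levels were 1965 and 3215 CPM. They were 2380 and 3392 CPM (0.51) without shared barcodes, and 2874 and 4836 CPM (0.75) in the 3 latest maturity bins. Of 18 alternatives, 17 gave 4 or 5 members at least 2-fold or 1.5-fold higher in cKO.

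No paired analysis was possible because each group has 1 library, so the groups share fewer than 2 replicate numbers. Leaving out a library would remove a group. Genotype and library cannot be told apart. Cstdc6 rests on 7 Ctrl UMIs in mNeu-like cells.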
